A study of Mus musculus with 2 samples.

Results

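The Wnt ligand genes described here are Wnt3, Wnt4, Wnt5a, Wnt6, Wnt7a, Wnt7b, Wnt10a, Wnt10b, Wnt11 and Wnt16, 10 of the 32285 genes listed in the files. They were chosen by their symbols, and all 10 were found, each with 1 row. The question was which epithelial cells of the growing hair follicle (HF) held the mRNA of each ligand, and whether the levels differed between the libraries. Back skin of mice at postnatal day 1 (P1) gave the cells, which were sorted for tdTomato after the epidermis had been peeled from the dermis, so that epidermal cells were those that stayed with the dermal fraction. There was 1 library labelled WT and 1 labelled PADI4 cKO, both of batch 1, and the number of animals behind each is not given in the sources used here.

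The mice carried Krt14-Cre, which is active in the basal layer of skin epithelium and its progeny, and the Ai14 tdTomato reporter, which is switched on by Cre. The library labelled PADI4 cKO came from mice with the floxed Padi4 allele B6.Cg-Padi4tm1.2Kmow/J (Padi4 fl/fl). The label of the other library says WT with no allele, while the protocol text names K14-Cre Padi4 fl/fl mice for both libraries. The paper reporting the data describes its WT profile as K14-Cre tdTomato cells. It obtained the cKO by crossing that line to Padi4 fl/fl mice. Padi4 itself, the targeted gene, had 99 UMIs (unique molecular identifiers, 1 per captured mRNA molecule) in the kept WT cells and 92 in the PADI4 cKO cells, or 0.771 CPM (UMIs of a gene scaled to a total of 1000000; 95% interval 0.627 to 0.939) and 0.707 CPM (0.570 to 0.867). These intervals overlap, so the counts did not separate the libraries, and reads from the 3′ end of an mRNA need not cover the deleted exons.

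Wnt proteins are secreted, lipid-modified ligands that bind Frizzled receptors on nearby cells. In the β-catenin pathway they stabilize β-catenin, which then acts with Lef1 and Tcf factors in the nucleus; other ligands, with Wnt5a as the best known, act largely through Ror receptors and cell polarity. In skin, Wnt signaling is needed to start a HF and later for the matrix cells at its base to form the hair shaft.

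The files held 143938990 UMIs for WT and 143945294 for PADI4 cKO. After filtering, 8072 WT and 7391 PADI4 cKO cells remained, with medians of 14670 and 16208 UMIs, and the libraries shared 14 cell barcodes. A cell was given to the class whose marker genes it expressed best. This placed 6025 WT and 5675 PADI4 cKO cells in epithelial classes, with 1956 and 1648 cells left ungated. Levels were compared over 11 classes with at least 50 cells in each library. Names follow the markers: interfollicular epidermis (IFE)-like, upper HF (uHF)-like, sebaceous gland (SG)-like, outer root sheath (ORS)-like, lower proximal cup (LPC)-like, germinative layer (GL)-like, inner root sheath (IRS)-like and medulla (Med)-like cells, and 3 classes that were called by their genes, Cldn10/Dlx4 cells, Slit3/Ret cells and Acta2/Krt18 cells. The LPC and GL are progenitor zones at the base of the HF, and the medulla is the core of the hair shaft. The cortex (Cx)-like cells (76 WT and 49 PADI4 cKO cells) and the Companion-like cells (23 and 16), of the layer between both root sheaths, were too few for the comparison, and their levels are given as values. With 1 library per group there was no test across animals, and every interval below is a 95% interval that covers counting error only.

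Sequence upstream of the ligand genes is shown for 4 members on which the results below turn. Wnt3 and Wnt10b were the pair of members whose levels were most alike across classes, Wnt16 differed most between the libraries over all gated cells, and Wnt11 was the member whose window held the letters searched. The windows are RefSeq promoter windows of GRCm38.p6, from 250 bases before to 50 bases after the gene start, 5′ to 3′ on the strand of the gene. Capitals mark the letters CTTTGA, a form of the core bound by Lef1 and Tcf factors, searched on both strands (TCAAAG on the other). Other forms of the core were not searched.
Wnt3, chr11:103773925-103774224, plus strand: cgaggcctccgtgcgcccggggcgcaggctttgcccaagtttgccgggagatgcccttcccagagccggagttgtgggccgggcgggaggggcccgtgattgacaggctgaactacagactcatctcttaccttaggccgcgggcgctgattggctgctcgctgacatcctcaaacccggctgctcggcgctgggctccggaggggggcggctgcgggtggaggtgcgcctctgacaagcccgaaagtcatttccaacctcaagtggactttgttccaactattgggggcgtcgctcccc
Wnt10b, chr15:98778101-98778400, minus strand: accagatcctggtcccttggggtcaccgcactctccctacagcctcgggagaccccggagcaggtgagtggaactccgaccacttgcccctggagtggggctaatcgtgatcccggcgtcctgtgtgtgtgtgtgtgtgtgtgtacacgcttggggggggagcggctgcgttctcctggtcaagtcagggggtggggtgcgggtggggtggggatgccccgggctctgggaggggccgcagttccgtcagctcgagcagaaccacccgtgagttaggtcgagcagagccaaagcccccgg
Wnt16, chr6:22287977-22288276, plus strand: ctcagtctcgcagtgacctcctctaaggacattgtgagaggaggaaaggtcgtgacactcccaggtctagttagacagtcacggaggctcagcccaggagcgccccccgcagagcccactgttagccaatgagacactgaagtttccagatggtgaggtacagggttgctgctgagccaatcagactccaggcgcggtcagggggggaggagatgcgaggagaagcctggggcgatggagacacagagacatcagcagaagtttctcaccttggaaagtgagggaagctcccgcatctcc
Wnt11, chr7:98834862-98835161, plus strand: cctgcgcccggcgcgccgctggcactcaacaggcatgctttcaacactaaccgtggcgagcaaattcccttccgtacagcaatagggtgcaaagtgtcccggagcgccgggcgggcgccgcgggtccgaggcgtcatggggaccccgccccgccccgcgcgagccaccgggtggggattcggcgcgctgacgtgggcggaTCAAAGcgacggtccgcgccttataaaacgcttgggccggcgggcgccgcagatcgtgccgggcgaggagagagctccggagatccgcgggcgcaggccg
Windows were found for 7 of the 10 members, 8 in all because Wnt11 has 2 starts. Those letters occurred in 1 of the 8, that of the first Wnt11 start, and in 16% of all 32851 windows of this length. Wnt5a, Wnt7b and Wnt10a had no entry. In the GRCm38 annotation, Wnt6 (chr1:74771892-74785322) and Wnt10a (chr1:74791516-74804179) are neighbors on the plus strand, 6.19 kb apart, and Wnt4 (chr4:137277489-137299726) lies 3.45 Mb from Padi4 on the same chromosome.

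Each ligand had its own distribution over the follicle, and 7 of the 10 had the same leading class in both libraries. Among the 11 classes compared, Wnt3, Wnt5a and Wnt10a were highest in the Med-like cells and Wnt10b in the Cldn10/Dlx4 cells. Wnt7a was highest in the LPC-like cells, Wnt11 in the IRS-like cells and Wnt16 in the IFE-like cells. The other 3 were led by the IFE-like (Wnt4, Wnt7b) or uHF-like cells (Wnt6) in WT and by the Med-like (Wnt4, Wnt6) or uHF-like cells (Wnt7b) in PADI4 cKO. The interval of the leading class overlapped that of the next for Wnt6 and Wnt10b in both libraries. The same held for Wnt10a in WT and for Wnt7b and Wnt16 in PADI4 cKO. In these cases the counts do not settle which class led. The Companion-like and Cx-like cells, too few for this ranking, are left out of it. As given below, the Companion-like cells held more Wnt11 than any class compared. The Cx-like cells held more Wnt10b and, in PADI4 cKO, more Wnt10a. Over the 11 classes, the levels of the libraries correlated with Pearson's r from 0.792 (Wnt7a) to 0.991 (Wnt7b), as a description of 11 classes that share their gates and their library.

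**Figure D1:**
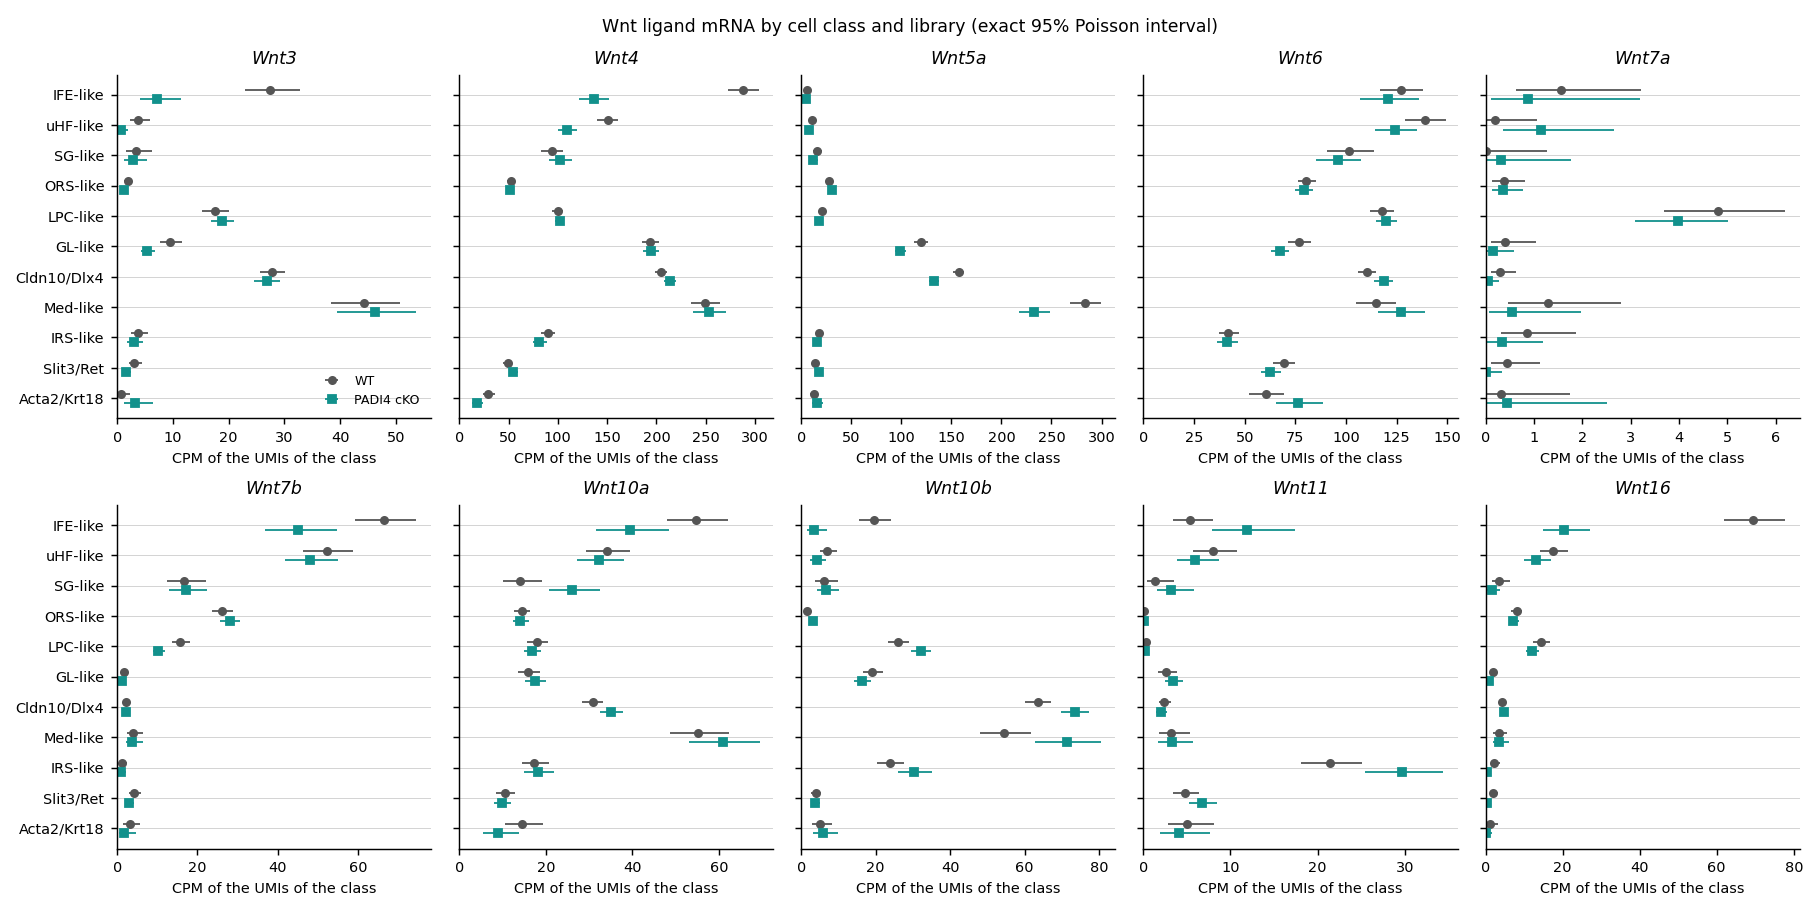
CPM of each Wnt ligand (horizontal axis, with its own scale per panel) in 11 cell classes (vertical axis) for the WT library (gray circles) and the PADI4 cKO library (teal squares), with exact 95% Poisson intervals. Among these classes, Wnt5a peaks in the Med-like cells at 283 and 233 CPM and Wnt11 in the IRS-like cells at 21.4 and 29.7 CPM. Wnt16 differs most in the IFE-like cells, at 69.5 and 20.3 CPM. The Companion-like and Cx-like cells are not among the 11 classes.

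Wnt10b, Wnt3 and Wnt10a, ligands of the β-catenin pathway, were highest in cells of the matrix and the forming shaft. Wnt10b measured 63.5 CPM (60.1 to 67.1) in the WT and 73.6 CPM (69.9 to 77.4) in the PADI4 cKO Cldn10/Dlx4 cells. The Med-like cells were close behind, at 54.5 CPM (48.0 to 61.7) and 71.3 CPM (62.9 to 80.4), and the intervals of both classes overlapped in each library. The lowest Wnt10b level was that of the ORS-like cells, at 1.497 and 3.05 CPM. The Cldn10/Dlx4 cells thus lay 42.4-fold above the ORS-like cells in WT and 24.1-fold in PADI4 cKO. The GL-like cells held less Wnt10b than the Cldn10/Dlx4 cells, at 19.1 and 16.3 CPM. The few Cx-like cells, which make the hair cortex, held more Wnt10b than any class compared, 111 CPM (93.8 to 131) and 130 CPM (107 to 155).

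Wnt3 reached 44.2 CPM (38.4 to 50.7) in the WT Med-like cells and 46.1 CPM (39.4 to 53.6) in those of PADI4 cKO. The Cldn10/Dlx4 cells followed with 27.8 and 26.8 CPM, and because they were many they held 43.0% and 45.2% of the Wnt3 UMIs of the 11 classes. LPC-like cells held 17.5 and 18.8 CPM, whereas the ORS-like, Slit3/Ret, Acta2/Krt18, SG-like, IRS-like and uHF-like cells all lay between 0.628 and 3.79 CPM. In WT the IFE-like cells, at 27.5 CPM (22.8 to 32.8), could not be told from the Cldn10/Dlx4 cells, while in PADI4 cKO they had 7.08 CPM (4.05 to 11.5). Wnt3 was thus high in cells of the shaft side in both libraries, was high in the WT IFE-like cells too, and was low in both root sheaths. Among the clusters, the highest Wnt3 level in WT was that of cluster 20, which held WT cells only, at 88.2 CPM (69.9 to 110), ahead of the Med-like cluster 11 at 58.4 CPM. Wnt10a, a gene whose loss in humans disturbs teeth and hair, measured 55.2 CPM (48.6 to 62.4) and 60.9 CPM (53.2 to 69.4) in the Med-like cells. In WT the IFE-like cells, at 54.7 CPM, could not be told from the Med-like cells, while in PADI4 cKO they lay at 39.4 CPM with an interval of 31.6 to 48.4. Wnt10a was less restricted than the other shaft ligands, with a span between its highest and lowest class of 5.23-fold in WT and 6.78-fold in PADI4 cKO. The Cx-like cells measured 68.7 CPM (55.2 to 84.6), an interval that overlaps that of the Med-like cells, and 114 CPM (93.4 to 138), above every class compared.

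Wnt5a, the ligand best known for signaling without β-catenin, spanned 47.0-fold from its highest to its lowest class in WT and 47.8-fold in PADI4 cKO. It measured 283 CPM (268 to 299) and 233 CPM (217 to 249) in the Med-like cells, 157 and 133 CPM in the Cldn10/Dlx4 cells and 119 and 98.6 CPM in the GL-like cells. None of these neighboring intervals overlapped in either library. The ORS-like cells held 27.5 and 30.4 CPM, and the IFE-like cells were lowest at 6.03 and 4.87 CPM. The co-sorted fibroblast-like cells, 37 WT and 20 PADI4 cKO cells, had 86.1 CPM (62.5 to 116) and 81.0 CPM (54.3 to 116). The summed level of the 5 fibroblast markers was 1.503 and 1.09 CPM in the Med-like cells, where Wnt5a was highest, and at most 13.6 CPM in any class.

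Like most members, Wnt4 and Wnt6 were found in every class, and their lowest levels exceeded those of the other members. Wnt4, which can act with or without β-catenin, measured 288 CPM (272 to 304) in the WT IFE-like cells and 249 and 254 CPM in the Med-like cells of WT and PADI4 cKO. The Cldn10/Dlx4 cells (204 and 214 CPM) and the GL-like cells (194 and 195 CPM) followed, and the Acta2/Krt18 cells were lowest at 29.5 and 18.0 CPM. Wnt6 had the flattest profile of the 9 members with a level above 0 in every class of WT, with 139 CPM in the uHF-like cells and 41.8 CPM in the IRS-like cells of WT, a span of 3.32-fold. In PADI4 cKO it ran from 127 CPM in the Med-like to 41.1 CPM in the IRS-like cells, and the intervals of the Med-like, uHF-like, IFE-like, LPC-like and Cldn10/Dlx4 cells overlapped there.

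Wnt7b and Wnt16 were led by the cells of the epidermis and upper follicle, and both were also found in the LPC-like cells at the base. Wnt7b, which signals through β-catenin in many epithelia, measured 66.6 CPM (59.2 to 74.6) and 45.1 CPM (36.8 to 54.8) in the IFE-like cells, 52.2 and 48.0 CPM in the uHF-like cells and 26.1 and 28.0 CPM in the ORS-like cells. Its level in the LPC-like cells was 15.7 and 10.3 CPM. The GL-like, IRS-like, Cldn10/Dlx4, Acta2/Krt18, Med-like and Slit3/Ret cells lay between 0.995 and 4.28 CPM. Across the 22 class-by-library points the log2(CPM + 1) values of Wnt7b and Wnt5a had r = -0.56, the lowest of all pairs of members. Wnt16 measured 69.5 CPM (62.0 to 77.6) in the WT IFE-like cells, 17.4 CPM in the uHF-like and 14.4 CPM in the LPC-like cells. In PADI4 cKO the same classes held 20.3 CPM (14.9 to 27.1), 13.02 and 12.1 CPM, and the 3 intervals overlapped from one class to the next. The ORS-like cells were lower, at 8.05 and 7.23 CPM. LPC-like cells held 20.6% of the Wnt16 UMIs in WT and 37.4% in PADI4 cKO, the largest share there. The Acta2/Krt18 cells had 4 Wnt16 UMIs in WT and 0 in PADI4 cKO, where 0 UMIs allow a level of up to 1.35 CPM.

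Wnt11 and Wnt7a were each highest in 1 class and low in most others. Wnt11, known for cell movement and polarity, measured 21.4 CPM (18.1 to 25.1) and 29.7 CPM (25.5 to 34.4) in the IRS-like cells, and only 1 and 2 UMIs were found in the ORS-like cells, 0.0624 CPM (0.00158 to 0.348) and 0.120 CPM (0.0145 to 0.432). The few Companion-like cells held 239 CPM (194 to 293) and 339 CPM (269 to 422), far above the IRS-like cells. Clustering without the Wnt genes gave the same picture, since cluster 22, led by the companion layer keratin Krt75, measured 259 CPM (239 to 280) and 263 CPM (242 to 285) over 131 cells of each library. Of its cells 65.6% were ungated and the IFE-like class held the most gated ones, so that Wnt11 was led by the IFE-like class when each cluster took the class of most of its gated cells. The next cluster, the Krt71 cells of the inner sheath, had 18.6 and 27.6 CPM. Wnt7a was the rarest member, with 103 UMIs in WT and 93 in PADI4 cKO. The LPC-like cells had 4.82 CPM (3.68 to 6.19) and 3.97 CPM (3.098 to 5.02), and no other class exceeded 1.56 CPM. A share of 59.8% and 76.1% of the Wnt7a UMIs of the 11 classes came from the LPC-like cells. In the clusters the same gene peaked in cluster 0, led by Frem1 and Sp5, at 6.61 CPM (5.22 to 8.25) and 6.43 CPM (5.24 to 7.80). In WT the Krt1 cluster 9 had 4.21 CPM (2.86 to 5.97), an interval that overlaps that of cluster 0, and in PADI4 cKO it had 1.11 CPM (0.134 to 3.99).

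**Figure D2:**
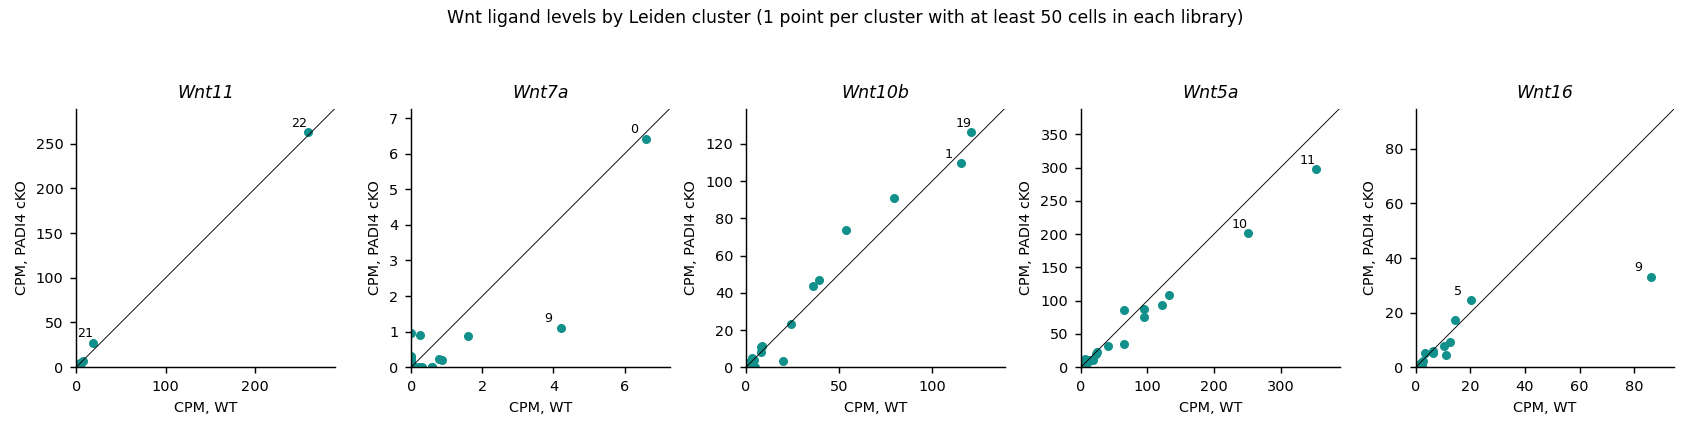
CPM of 5 Wnt ligands in the WT library (horizontal axis) and the PADI4 cKO library (vertical axis), with 1 point per Leiden cluster and the line of equal levels; numbers name the 2 clusters highest in WT. Wnt11 is highest in cluster 22 in both libraries, with cluster 21 next, Wnt5a lies under the line in clusters 11 and 10, and Wnt16 lies far under it in cluster 9.

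The clusters separated the shaft ligands further than the gates did. Cluster 19, led by Dsg4 and the cortex keratin Krt35, had the highest Wnt10b (121 and 126 CPM) and Wnt10a (99.4 and 119 CPM). Cluster 1, led by Nr4a3, Dcn and Shh, was next for Wnt10b, at 115 and 110 CPM, while its Wnt10a was 40.2 and 41.2 CPM. Wnt5a was highest in cluster 11, led by Krtap8-1, at 353 and 298 CPM. Cluster 9, led by Krt1, was the leading cluster of Wnt4, Wnt7b and Wnt16 in WT. It held 541 WT and 137 PADI4 cKO cells, and cluster 20 held 45 WT cells and 0 PADI4 cKO cells.

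**Figure D3:**
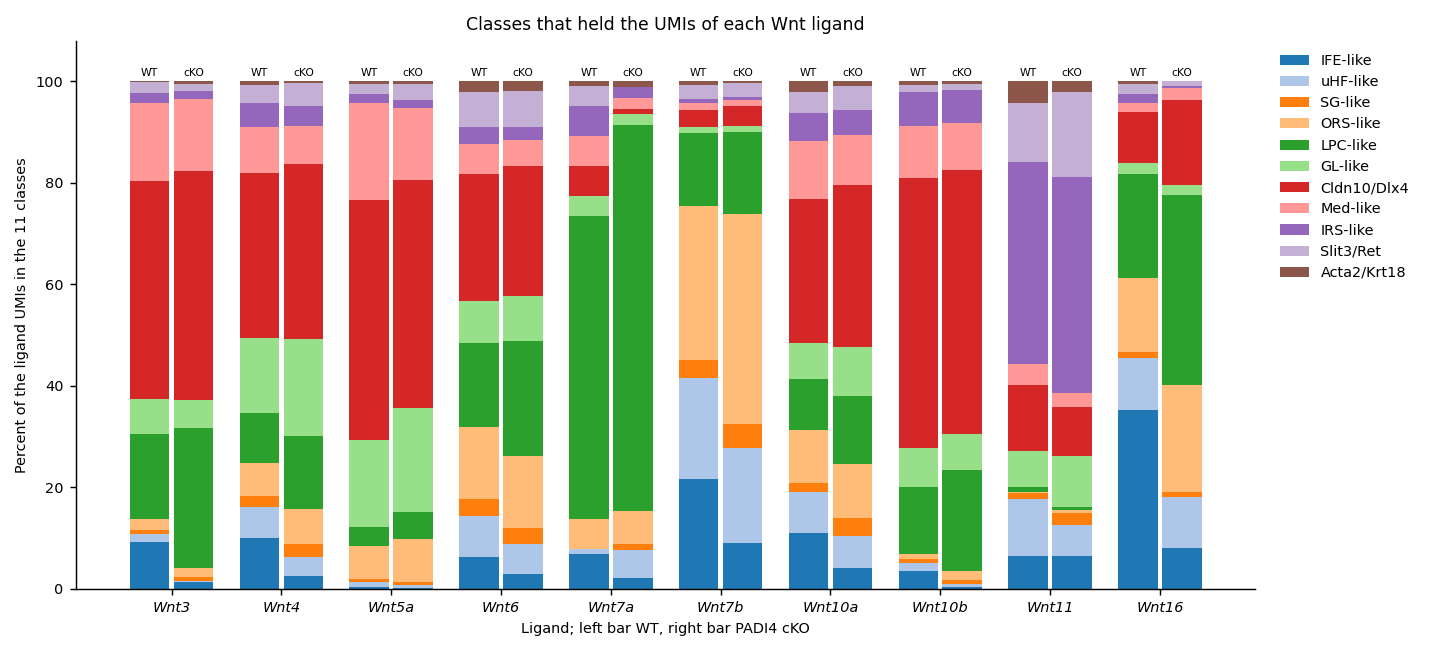
Percent of the UMIs of each ligand (vertical axis) that came from each of 11 cell classes (colors), with the WT library as the left and the PADI4 cKO library as the right bar of each pair. LPC-like cells held 59.8% and 76.1% of the Wnt7a UMIs and Cldn10/Dlx4 cells 53.2% and 52.2% of those of Wnt10b; the shares also move with the number of cells in each class.

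At full depth, 67.2% of the gated WT and 67.9% of the gated PADI4 cKO cells had a UMI of at least 2 members, against 15.0% and 12.3% with each cell thinned to 2000 UMIs. The median number of members with a UMI was 4 in the Med-like cells of both libraries, 3 and 4 in the Cldn10/Dlx4 cells and 1 in the ORS-like, Slit3/Ret and Acta2/Krt18 cells. Because the classes differed in UMIs per cell, the classes were compared after thinning. At that depth 39.2% of the WT and 33.2% of the PADI4 cKO Med-like cells had at least 2 members, against 4.78% and 5.09% of the ORS-like cells. Within the Cldn10/Dlx4 cells, Wnt3 and Wnt10b were found together in 238 WT cells, where independent detection would give 145, and in 229 PADI4 cKO cells against 154. Within the ORS-like cells, Wnt5a and Wnt7b shared 50 WT cells against 63.0 and 46 PADI4 cKO cells against 74.7, whereas Wnt7b and Wnt16 shared 35 against 16.9 and 38 against 20.3. The first of these pairs thus met more often, the second less often and the last more often than independence in both libraries; the pairs were picked after their values had been seen, and deeper cells detect more of any pair. After thinning, Wnt3 and Wnt10b shared 17 and 14 cells, where independence gives 8.27 and 6.34. Wnt5a and Wnt7b shared 1 cell in each library against 2.95 and 3.98, and Wnt7b and Wnt16 shared 2 in each against 0.737 and 1.05, too few cells to show a difference from independence.

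Across the 22 class-by-library points, the pairs of members most alike were Wnt3 and Wnt10b (r = 0.84), Wnt7b and Wnt16 (r = 0.82) and Wnt4 and Wnt10a (r = 0.81). These values, on the log2(CPM + 1) scale, describe points that share gates and libraries. Among genes with at least 500 UMIs that are neither markers nor members, Wnt10b was most like Pkp4, a desmosome-associated protein gene, the receptor gene Tnfrsf19 and Lef1, the nuclear partner of β-catenin (r from 0.95 to 0.96). Wnt3 was most like Bmp2, a BMP ligand (r = 0.93), Wnt5a like Hes6 (r = 0.94), Wnt7b like Cyp4b1 (r = 0.97), Wnt11 like Heyl, a Notch target (r = 0.93), Wnt4 like Gm24474 (r = 0.92), Wnt10a like Psd3 (r = 0.90), Wnt6 like Rbfox2 (r = 0.87), Wnt16 like Arl4c (r = 0.85) and Wnt7a like Elovl7 (r = 0.78).

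The libraries were then compared class by class for members with at least 100 UMIs in a class, 62 pairs of a member and a class. The log2 ratio of CPM, PADI4 cKO over WT, lay past 0.5 in 8 of the 62, with 1 higher and 7 lower. Of all 102988 pairs of a gene and a class, 5.42% were past 0.5, with 2.2% higher and 3.22% lower. The median of the 62 ratios was -0.03, and that over all genes and classes was -0.00. In the IFE-like cells 4 of 6 members were past 0.5, where 14.3% of the 8059 genes compared in these cells were past it and 8.04% were lower by that much. These were Wnt3 (-1.92, interval -2.81 to -1.20), Wnt16 (-1.76, -2.25 to -1.32), Wnt4 (-1.08, -1.26 to -0.90) and Wnt7b (-0.56, -0.90 to -0.23), all lower in PADI4 cKO. Wnt10a was lower by less than the threshold (-0.47, -0.84 to -0.12), and Wnt6 lay at -0.07 with an interval that holds 0. The other 4 members had too few UMIs there to be compared, and went both ways, as Wnt10b measured 19.4 and 3.54 CPM and Wnt11 5.36 and 11.9 CPM.

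**Figure D4:**
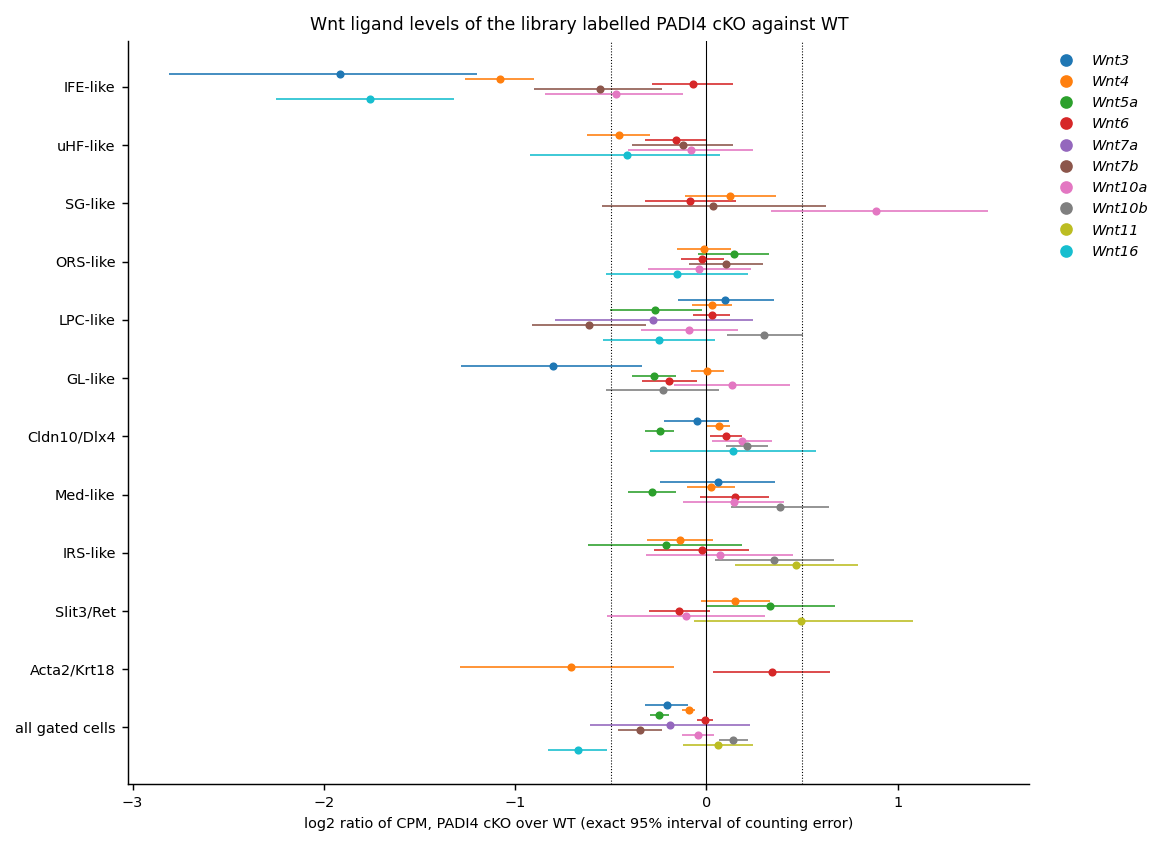
Log2 ratio of CPM, PADI4 cKO over WT (horizontal axis), of each Wnt ligand (color) with at least 100 UMIs in a class (vertical axis), with exact 95% intervals; dotted lines mark 0.5 in both directions. Of the 62 class points 8 lie past the dotted lines, 4 of them in the IFE-like cells, and over all gated cells Wnt16 lies at -0.67.

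The IFE-like cells of both libraries were not alike in all of their own markers. Krt1, a keratin of differentiating epidermis, measured 820 CPM in WT and 88.0 CPM in PADI4 cKO, and Krt10 measured 821 and 123 CPM. The other markers of the class were Krtdap, at 1356 and 878 CPM, and Sbsn, at 139 CPM in both. Krt14 of the basal layer, which is not a marker of the class, measured 5221 and 2260 CPM. Cluster 9 held 51.5% of the WT and 21.6% of the PADI4 cKO IFE-like cells. The WT library also held cells of both sexes by their transcripts, as 63.2% of its gated epithelial cells had Y-linked UMIs and no Xist and 25.5% had Xist UMIs and no Y-linked, while 98.4% of the PADI4 cKO cells were of the latter kind. In the 247 WT IFE-like cells with Y-linked UMIs, Wnt16 measured 80.3 CPM (71.0 to 90.5), in the 50 WT cells with Xist 14.5 CPM (6.26 to 28.6) and in the 164 PADI4 cKO cells with Xist 20.2 CPM (14.8 to 27.1). Wnt4 measured 323, 132 and 134 CPM, and Wnt7b 76.7, 25.4 and 44.1 CPM. For these 3 ligands, the WT cells with Xist lay nearer to the PADI4 cKO cells than to the other WT cells. Wnt3 measured 30.6 CPM (25.0 to 37.2), 16.3 CPM (7.45 to 30.9) and 6.75 CPM (3.78 to 11.1).

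Restricted to cells with Xist and no Y-linked UMIs, the log2 ratio in the IFE-like cells was 0.41 (-0.62 to 1.78) for Wnt16, 0.01 (-0.35 to 0.41) for Wnt4 and 0.75 (-0.02 to 1.72) for Wnt7b, so that the lower levels of these ligands were not seen in that comparison. These intervals are wide, with 8, 73 and 14 WT UMIs. The Wnt3 ratio lay at -1.30 (-2.56 to 0.10), with 9 and 15 UMIs, and its interval also holds 0. Krt1 in the same 3 sets of cells measured 1017, 118 and 81.0 CPM. The summed level of 5 melanocyte markers was 52.5 CPM in the WT and 127 CPM in the PADI4 cKO IFE-like cells, and was higher in PADI4 cKO in all 11 classes; its part in the results was not tested. Genotype, sex and the make-up of the IFE-like cells cannot be told apart with these libraries.

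**Figure D5:**
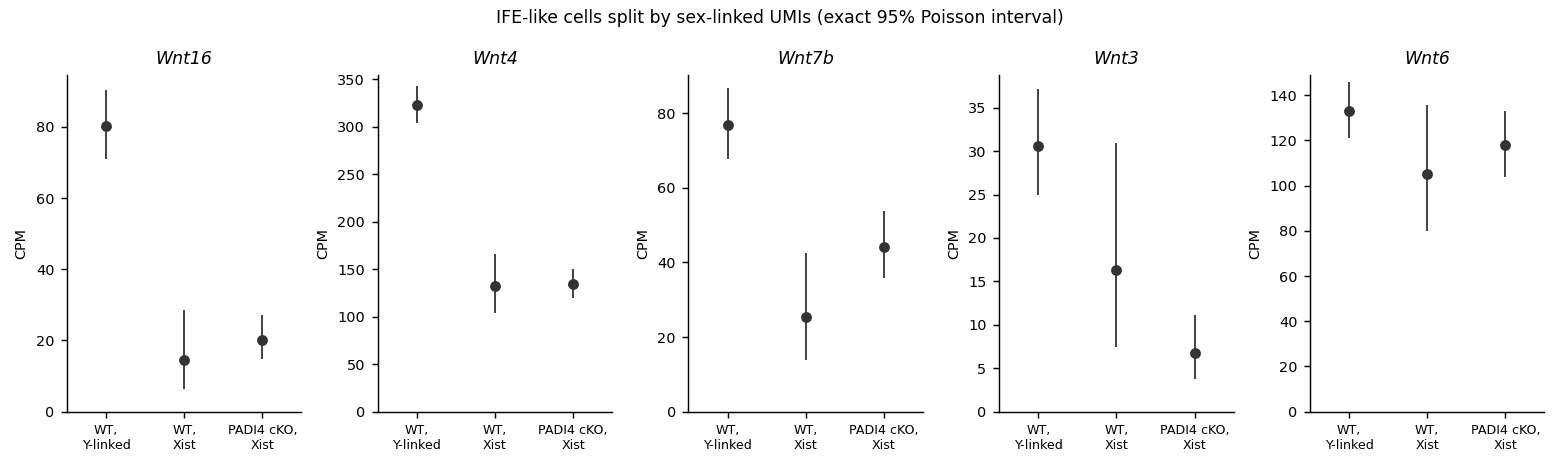
CPM (vertical axis) of 5 Wnt ligands in IFE-like cells, split into WT cells with Y-linked and no Xist UMIs, WT cells with Xist and no Y-linked UMIs and PADI4 cKO cells with Xist and no Y-linked UMIs, with exact 95% Poisson intervals. For Wnt16, Wnt4 and Wnt7b the WT cells with Xist (14.5, 132 and 25.4 CPM) lie nearer to the PADI4 cKO cells (20.2, 134 and 44.1 CPM) than to the other WT cells (80.3, 323 and 76.7 CPM).

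Outside the IFE-like cells, 4 of 56 pairs were past 0.5. Wnt10a was higher in the PADI4 cKO SG-like cells (26.1 against 14.03 CPM; log2 ratio 0.89, 0.34 to 1.47), 1 of 4 members, with 6.02% of all genes past 0.5 there. Its levels in these cells were 12.6 CPM in WT with Y-linked UMIs, 19.9 CPM (9.94 to 35.6) in WT with Xist and 26.3 CPM (20.9 to 32.7) in PADI4 cKO with Xist, and the last 2 intervals overlap. Wnt3 was lower in the GL-like cells (5.41 against 9.45 CPM; -0.80, -1.28 to -0.34), 1 of 6 members against 2.77% of genes, and in the cells with Xist its levels there were 10.7 CPM in WT and 5.37 CPM in PADI4 cKO. Wnt7b was lower in the LPC-like cells (10.3 against 15.7 CPM; -0.61, -0.91 to -0.31), 1 of 9 members against 5.4% of genes, and lay at -0.78 (-1.22 to -0.31) in the cells with Xist. Wnt4 was lower in the Acta2/Krt18 cells (18.0 against 29.5 CPM; -0.71, -1.29 to -0.17), 1 of 2 members against 5.99% of genes. Within WT, Wnt4 in those cells was 18.8 CPM with Y-linked UMIs and 45.3 CPM (33.8 to 59.4) with Xist. That gap was wider than the one between the libraries. The PADI4 cKO cells with Xist measured 17.8 CPM (12.7 to 24.4), so among cells with Xist the level was also lower in PADI4 cKO. In the uHF-like, ORS-like, IRS-like, Med-like, Slit3/Ret and Cldn10/Dlx4 cells 0 of 5, 6, 6, 6, 5 and 7 members were past 0.5, where 6.86%, 5.67%, 3.09%, 4.86%, 3.56% and 3.17% of all genes were.

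Smaller differences ran through several classes. Wnt5a was lower in PADI4 cKO with intervals below 0 in the Med-like (-0.28, -0.41 to -0.16), GL-like (-0.27, -0.39 to -0.16), LPC-like (-0.27, -0.51 to -0.02) and Cldn10/Dlx4 cells (-0.24, -0.32 to -0.17), and lay at 0.14 (-0.04 to 0.33) in the ORS-like cells. In the Slit3/Ret cells it was higher in PADI4 cKO, at 0.33 with an interval of 0.0027 to 0.67. In the cells with Xist, the Wnt5a ratio was -0.53 (-0.69 to -0.36) in the GL-like cells, -0.17 (-0.38 to 0.04) in the Med-like cells and 0.04 (-0.09 to 0.17) in the Cldn10/Dlx4 cells. Wnt10b was higher in the Med-like (0.39, 0.13 to 0.64), IRS-like (0.35, 0.04 to 0.67), LPC-like (0.30, 0.11 to 0.50) and Cldn10/Dlx4 cells (0.21, 0.10 to 0.32). In the cells with Xist, its ratios in these classes were 0.53, -0.08, 0.50 and 0.01. Wnt11 was higher in the IRS-like cells (0.47, 0.15 to 0.79), and lay at 0.14 (-0.36 to 0.70) in the cells with Xist. Wnt4 was lower in the uHF-like cells (-0.46, -0.63 to -0.29). In the cells with Xist, Wnt4 there measured 191 CPM (162 to 224) in WT and 110 CPM (100 to 120) in PADI4 cKO. Intervals that exclude 0 were common at this depth, for 5 of 7 members and 23.9% of all genes in the Cldn10/Dlx4 cells.

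Over all gated epithelial cells, 1 of the 10 members was past 0.5, with 5.2% of 14448 genes past it. This was Wnt16, with 9.11 CPM in WT and 5.72 CPM in PADI4 cKO (log2 ratio -0.67, -0.83 to -0.52), and in the cells with Xist its ratio was 0.47 (0.16 to 0.80). Wnt7b lay at -0.35 (-0.46 to -0.23), Wnt5a at -0.25 (-0.30 to -0.20), Wnt3 at -0.21 (-0.32 to -0.09) and Wnt10b at 0.14 (0.06 to 0.22), and Wnt6 at -0.01 (-0.05 to 0.03). Levels over all cells also move with the share of each class.

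The other genes of the pathway were followed by lists of fixed membership. Wls, the carrier that takes Wnt proteins to the cell surface, was found in all 11 classes, from 207 to 355 CPM in WT and from 191 to 349 CPM in PADI4 cKO, highest in the Cldn10/Dlx4 cells of both. Porcn, which attaches the lipid, measured 4.11 to 19.9 CPM in WT and 4.14 to 21.0 CPM in PADI4 cKO. Of the 9 other Wnt genes, 4 had at least 100 UMIs over both libraries, and the most abundant, Wnt5b, was highest in the ORS-like cells at 143 and 125 CPM. The receptor with the most UMIs, Ryk, was highest in the LPC-like cells (405 and 393 CPM).

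Response genes differed in where they were highest. Of the 10, 7 had the same leading class in both libraries, and the ORS-like cells led 3 of these, Tcf7l1, Tcf7l2 and Lgr5, named after their values were seen. Axin2, a direct target of β-catenin, measured 84.0 and 86.8 CPM in the Med-like and 80.7 and 89.4 CPM in the Cldn10/Dlx4 cells, against 6.91 and 7.64 CPM in the Acta2/Krt18 cells. Lef1 measured 1605 and 1400 CPM in the Med-like cells and 35.5 and 28.5 CPM in the ORS-like cells, and Znrf3, a ligase that removes Frizzled receptors, was highest in the Cldn10/Dlx4 cells at 749 and 881 CPM. Over all gated cells, 0 of 10 response genes, 0 of 14 receptors and 0 of 2 secretion genes with at least 100 UMIs were past 0.5, beside 5.2% of all genes. Of 12 inhibitors 2 were, Sfrp2 (0.57, 0.29 to 0.86) and Sfrp5 (1.04, 0.48 to 1.63), and of 4 other Wnt genes 1 was, Wnt3a (-0.90, -1.29 to -0.53). These 3 genes were named after their values were seen, and Sfrp2 and Sfrp5 bind Wnt proteins outside the cell. Over those cells the log2 ratio of Axin2 was 0.02 (-0.04 to 0.08) and that of Lef1 -0.02 (-0.04 to 0.00). In the IFE-like cells 6 of the 10 response genes could be compared, and 3 were past 0.5, in both directions. Of all 8059 genes compared in these cells, 14.3% were past 0.5. Lef1 was lower in PADI4 cKO (-1.80, -2.16 to -1.47), and Tcf7l2 (0.58, 0.45 to 0.70) and Lgr5 (0.75, 0.58 to 0.91) were higher, all named after their values were seen. These genes were not split by Xist and Y-linked UMIs.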

How the data were processed

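The data are single-cell RNA sequencing libraries of sorted tdTomato-positive P1 skin cells. The authors deposited raw counts of UMIs per gene and barcode, made with Cell Ranger 7.1.0 and mm10 per the submitters' processing notes and file headers, with empty droplets included. Kept cells had a ribosomal share between percentiles 5 and 99, no more than 20% mitochondrial and 1% hemoglobin UMIs, 1000 to 8000 genes and 2000 to 60000 UMIs. Each cell went to the list with the highest mean z-score (13 epithelial, 6 other lists; z at most 5, score at least 0.5, lead at least 0.1, 2 markers detected). UMIs were summed per class and library. CPM had exact Poisson intervals, shares exact binomial intervals, and log2 ratios (0.5 UMI added) exact conditional binomial intervals. The ratio method was tried on simulated data that held counting error only, with no differences between cells or animals. Limits at 0 use 3 counts. Leiden clusters (Scanpy 1.11.5, resolution 1.0, 1000 variable genes without Wnt genes, 50 components, 15 neighbors) gave a second view. Doublets were kept, except in 1 alternative without the 5% of cells with the highest Scrublet scores. Free RNA was at most 6.70% (WT) and 2.83% (PADI4 cKO) of UMIs. Over all gated epithelial cells it was at most 16.2% of the UMIs of any member (Wnt11 in WT). It can be a larger part in classes where a member is low. For Wnt5a in WT it was at most 3.01 CPM, beside 6.03 CPM in the IFE-like cells. Genes named are the members, 3 most-alike genes each (the closest is printed), and pathway lists; for the lists, values are given for Wls, Porcn, Axin2, Lef1 and the gene with the most UMIs of each; other list genes past 0.5 in small counts were named after their values were seen. The members and lists were chosen with earlier results of these data known. GENCODE vM21 matched 32158 of 32285 gene IDs. There were no replicates and no p-values.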

Additional observations from a re-analysis of the deposited data

Results flagged for a closer look

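Wnt4 and Wnt10a had log2 ratios of PADI4 cKO over WT whose counting intervals lay on opposite sides of 0 in different classes, and a ratio past 0.5 in at least 1 class. Wnt5a and Wnt6 had intervals on both sides of 0 as well, with no ratio past 0.5. The Wnt4 ratio was 0.06 in the Cldn10/Dlx4 cells and -1.08 in the IFE-like cells, a difference of 1.14. The lower limit in the Cldn10/Dlx4 cells was 0.0029, and it fell below 0 with a higher UMI limit per cell, without high Scrublet scores, with a marker score of 1.0, with empty-droplet UMIs subtracted and without mitochondrial and ribosomal genes. In thinned cells (-0.04) and in cells with Xist (-0.09) that ratio itself was below 0. The Wnt10a ratio was 0.89 in the SG-like cells and -0.47 in the IFE-like cells, a difference of 1.36. These differences were not tested, since each group had 1 library, and the IFE-like cells also differed in Krt1 (820 and 88.0 CPM). In the cells with Xist and no Y-linked UMIs the IFE-like ratios were 0.01 for Wnt4 and -0.11 for Wnt10a.

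Wnt11 was higher in the cells that no gate took than in the gated cells of both libraries. Its level in ungated cells was 18.2 CPM (16.7 to 19.8) in WT and 17.7 CPM (16.2 to 19.3) in PADI4 cKO, against 4.88 and 5.08 CPM in gated epithelial cells. Of cluster 22, the Krt75 cluster with 259 and 263 CPM of Wnt11, 65.6% of cells were ungated.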

How the results depend on the processing

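No paired analysis was possible because each group had 1 library. The number of members with the same leading class, 7, ran from 6 to 10 over 11 alternatives, with 10 when only cells with Xist and no Y-linked UMIs were used. With Leiden clusters taking the class of most of their gated cells, Wnt11 was led by the IFE-like class in both libraries, Wnt4 in WT by the Med-like and Wnt16 and Wnt6 in PADI4 cKO by the LPC-like class. Wnt10a in WT was led by the IFE-like cells under 4 alternatives, and Wnt10a and Wnt10b by the Cx-like cells with 40 cells per class. The count of member and class pairs past 0.5, 8 of 62, was 3 of 24 with cells thinned to 2000 UMIs, 4 of 57 with a minimum marker score of 1.0, 16 of 77 with a minimum of 50 UMIs and 20 of 90 with 20 UMIs, and 4 of 56 without the IFE-like cells (an alternative chosen after seeing the data). Thinning and the UMI minimum change the number of pairs compared. Shares of all genes past 0.5 are given for the reported setting of 100 UMIs only, so these other counts have no share beside them. Lower minimums also admit pairs with wider counting intervals. For the marker score the cause was not tested. Under the other alternatives the count ran from 8 to 11. The Wnt16 ratio over all gated cells reversed from -0.67 to 0.47 in cells with Xist and no Y-linked UMIs. Of 110 alternative values of the members' ratios over all gated cells, 98 stayed within the interval of the reported one and 8 changed sign. Alternatives with 40 cells per class and without the cluster of WT cells were also chosen after seeing the data. In the SG-like and Acta2/Krt18 cells 4 and 2 members reached the minimum of 100 UMIs, and the other members were not compared there.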
